A study of Mus musculus with 4 samples.

Results

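Accn2, now named Asic1, Dmxl2, Cacna1a and Syt1 are genes of the neuronal cell surface and of synaptic vesicles that carried peaks of the Flag-tagged Isl1-Lhx3 fusion. A peak belongs to one of them when its maximum has that gene as its nearest protein-coding transcription start (GENCODE M1 on the mouse build mm9). By this rule 6 of 2454 nuclear peaks, in 5 of 2301 regions, belonged to the 4 genes. The genes were chosen by the presence of a peak in the list, with the ChIP scores of their peaks already known, so these scores and ranks are descriptions without a test.

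The peaks come from ChIP-seq with an anti-Flag antibody in iMN-ESCs, mouse embryonic stem cells of the A172LoxP line in which Dox switches on a Flag-Isl1-Lhx3 transgene through a Tet-inducible plasmid. All embryoid bodies received retinoic acid (0.5 µM), at first alone for 2 days. One group was then given Dox at 2 µg/mL with retinoic acid for 4 days (n = 2 libraries), and the control group had retinoic acid without Dox (n = 2 libraries). Both groups received LIF (1000 units/mL) for the 16 hours before harvest. The transgene is an artificial fusion that stands in for the natural complex of both factors. The labels do not say whether the 2 numbered sets were separate cultures. The deposited list has a single ChIP score, background score and tag count per peak and no value per library, so neither the spread between libraries nor the difference between Dox and no Dox can be given. It holds no expression values, and the labelled cell type was not checked against markers.

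In the embryonic spinal cord Isl1 and Lhx3, transcription factors with a homeodomain and LIM domains, join through the adaptor protein Ldb1 in a complex that switches on motor neuron genes. Homeodomains recognise short AT-rich cores that contain TAAT. A motor neuron fires and releases acetylcholine by means of ion channels in its membrane, voltage-gated calcium channels at its terminals and vesicles that fuse when calcium enters. Accn2 encodes an acid-sensing ion channel, a sodium channel opened by protons. Cacna1a encodes the pore of the P/Q-type calcium channel, which triggers transmitter release at the neuromuscular junction. Syt1 encodes synaptotagmin 1, the calcium sensor on synaptic vesicles. Dmxl2 encodes rabconnectin-3, a large WD-repeat protein that is found on synaptic vesicles and associates with the proton pump that acidifies them.

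The mm9 sequence around each maximum is shown because the peaks differ in which homeodomain core they hold. Each line is the 200 bp centred on a maximum, except that the 2 Dmxl2 maxima, 91 bp apart, share a line of 291 bp. Capitals mark every TAAT and its reverse complement ATTA, so that adjoining or overlapping cores run together.

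Accn2 peak, chr15:99509090-99509289, plus strand: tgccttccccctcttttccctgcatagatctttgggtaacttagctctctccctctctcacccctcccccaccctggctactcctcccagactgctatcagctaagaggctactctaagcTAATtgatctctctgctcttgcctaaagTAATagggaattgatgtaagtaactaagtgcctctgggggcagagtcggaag
Dmxl2 peaks, chr9:54246912-54247202, plus strand: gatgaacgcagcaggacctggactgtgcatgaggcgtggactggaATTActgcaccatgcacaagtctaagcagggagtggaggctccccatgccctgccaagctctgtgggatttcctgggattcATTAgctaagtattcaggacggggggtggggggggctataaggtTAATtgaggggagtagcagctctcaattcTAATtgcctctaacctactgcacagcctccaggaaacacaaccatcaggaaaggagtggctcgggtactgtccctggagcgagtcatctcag
Cacna1a peak 1, chr8:87174220-87174419, plus strand: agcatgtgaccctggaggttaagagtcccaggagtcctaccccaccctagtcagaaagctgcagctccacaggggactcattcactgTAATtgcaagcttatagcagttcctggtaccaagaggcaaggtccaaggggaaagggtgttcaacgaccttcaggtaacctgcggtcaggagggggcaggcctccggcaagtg
Cacna1a peak 2, chr8:87025661-87025860, plus strand: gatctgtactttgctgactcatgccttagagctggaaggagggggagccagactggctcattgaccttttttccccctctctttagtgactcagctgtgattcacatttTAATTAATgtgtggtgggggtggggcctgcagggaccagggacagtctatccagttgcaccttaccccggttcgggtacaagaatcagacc
Syt1 peak, chr10:108041353-108041552, plus strand: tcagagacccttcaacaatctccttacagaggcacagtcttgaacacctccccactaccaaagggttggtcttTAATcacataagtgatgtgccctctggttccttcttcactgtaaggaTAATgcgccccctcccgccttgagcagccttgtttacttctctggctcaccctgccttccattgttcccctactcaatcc

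The 4 genes fell into different parts of the ranked list. Accn2 and Dmxl2 were at its top, Cacna1a was in its upper and middle part, and Syt1 was in its lower part, at number 1971. Across all nuclear peaks the ChIP score had a median of 40.95 and quartiles of 34.26 and 54.07. Cacna1a and Dmxl2 had 2 peaks each, those of Dmxl2 in 1 region. Of all protein-coding genes 417 (1.86%) had 2 or more. The 4 genes were chosen for having a peak, so these 417 are better set against the 1826 genes with a peak. Among the 1826 protein-coding genes with a peak, ordered by the strongest peak of each, Accn2 was number 5, Dmxl2 number 10, Cacna1a number 443 and Syt1 number 1552. The place of Cacna1a rests on its peak 1, which lies beyond the gene's end and goes to Ier2 by other choices of start. The peak inside Cacna1a scored 42.82 and was number 1099 among all peaks.

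**Figure D1:**
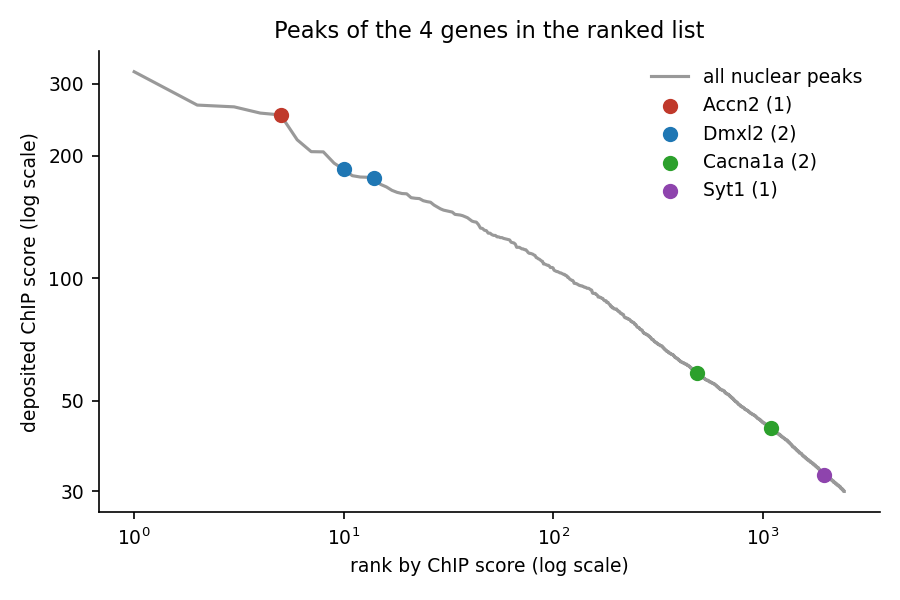
ChIP score (y axis, deposited score with no stated unit, log scale) against rank by ChIP score (x axis, log scale) for all 2454 nuclear peaks (grey line), with the 6 peaks of the 4 genes as coloured points. Accn2 and Dmxl2 lie at ranks 5, 10 and 14, Cacna1a at 485 and 1099, and Syt1 at 1971.

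Accn2, the acid-sensing channel gene, held 1 peak (chr15:99508941-99509440). Its ChIP score was 251.59 and its background score 0. The region had 193 tags (95% exact Poisson interval 167 to 222, counting error only) over 1149 bp. More tags were found in 0.130% of the 2301 regions, and the region was long beside the median of 467 bp. The peaks directly above and below it by score were those nearest to Ankrd55 (254.27, with 160 tags) and Slc35f3 (218.67, with 158 tags). The Accn2 region thus had more tags than either neighbour.

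The Accn2 maximum lay in an intron, 8.04 kb downstream of the outermost start of the gene (ENSMUSG00000023017, chromosome 15, 99501149 to 99531561, plus strand). In the longest of its 3 annotated transcripts this is intron 3 of 11, an intron of 21.6 kb, and the maximum lay 5.70 kb into it. The other 2 transcripts, both protein-coding, start downstream of the peak, by 13.6 kb and 16.4 kb. The next protein-coding gene was Smarcd1, which encodes a chromatin remodelling subunit, 23.5 kb away. The nearest other peak of the list was 591 kb away. Accn2 was the smallest of the 4 genes at 30.4 kb. Its territory, the stretch nearer to its starts than to those of any other protein-coding gene, was 37.6 kb against a median of 45.5 kb over all protein-coding genes.

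Dmxl2, the rabconnectin-3 gene, held 2 maxima in a single region of 789 bp. Regions with 2 or more maxima made up 5.87% of the list. Peak 1 (chr9:54246763-54247262) scored 184.95 in the ChIP and 0.4 in the background. Peak 2 (chr9:54246854-54247353) scored 176.11 and 0.14. The region had 166 tags in all (142 to 193), a count that both peaks carry, and their 500 bp windows overlap by 409 bp. They are therefore not separate measurements of binding at this gene. Beside peak 1 in the ranking stood the peaks nearest to Lats2 (191.64) and Zmat4 (178.52).

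Both Dmxl2 maxima lay deep inside the gene, 102 to 103 kb from its outermost start (ENSMUSG00000041268, chromosome 9, 54212965 to 54349567, minus strand) and 34.0 to 34.1 kb before its end. In the longest protein-coding transcript, with 43 introns, they lay in intron 25, which is only 1.82 kb long. The start that put them at 17.3 kb and 17.4 kb belongs to a retained-intron transcript that begins downstream of the peaks. From the nearest start of a protein-coding transcript they were 46.2 kb and 46.1 kb away. The next protein-coding gene with a start was Gldn, 113 kb away, so the peaks stayed with Dmxl2 under each of these readings.

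Cacna1a, the calcium channel gene, had 2 peaks in separate places, 149 kb apart. Peak 1 (chr8:87174071-87174570) scored 58.62 in the ChIP and 0.4 in the background, with 49 tags (36.3 to 64.8) in its region. It tied by score with several other peaks, among them those nearest to Zswim6 and Pdgfrl. It was the only one of the 6 peaks outside a gene body: the maximum lay 10.2 kb beyond the end of Cacna1a (ENSMUSG00000034656, chromosome 8, 86912339 to 87164145, plus strand) in intergenic sequence. Its assignment came from a processed transcript of 0.444 kb at the end of Cacna1a, whose start was 11.4 kb away. The immediate early gene Ier2 has its start at 12.4 kb on the other side, and by the starts of protein-coding transcripts alone, or by the outermost start of each gene, peak 1 belonged to Ier2. It was also the first of 3 separate regions in 8.95 kb. The other two, with scores of 53.53 and 37.2, were nearest to Ier2.

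Cacna1a peak 2 (chr8:87025512-87026011) lay inside the gene. It scored 42.82 in the ChIP, close to the list's median, and 0 in the background, with 25 tags (16.2 to 36.9). The maximum lay in an intron of 52.1 kb, the third of the longest protein-coding transcript. The maximum was 86.3 kb from the nearest start of a protein-coding transcript and 113 kb from the outermost start of the gene. The 45.2 kb by which the rule placed it refers to a processed transcript that starts downstream. Of both peaks, it was the one that kept Cacna1a as its gene under each of these readings.

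Syt1, the synaptotagmin 1 gene, held the weakest of the 6 peaks (chr10:108041204-108041703). Its ChIP score was 32.92, shared with many other peaks, among them those nearest to Ppia and Timp3, and its background score was 2.94. The region had 15 tags (8.40 to 24.7) over 305 bp, and 95.6% of regions had more. The peak lay in an intron of 43.3 kb, the eighth of the 10 introns of a protein-coding transcript that spans the gene (ENSMUSG00000035864, chromosome 10, 107934706 to 108448038, minus strand). It was 407 kb from the outermost start, and the 32.6 kb of the rule refers to a retained-intron transcript that starts inside the gene. By the other starts the peak belonged to Pawr, 272 kb away, although it lies within Syt1. At 513 kb Syt1 was the longest of the 4 genes, and 98.2% of protein-coding genes had a smaller territory.

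**Figure D2:**
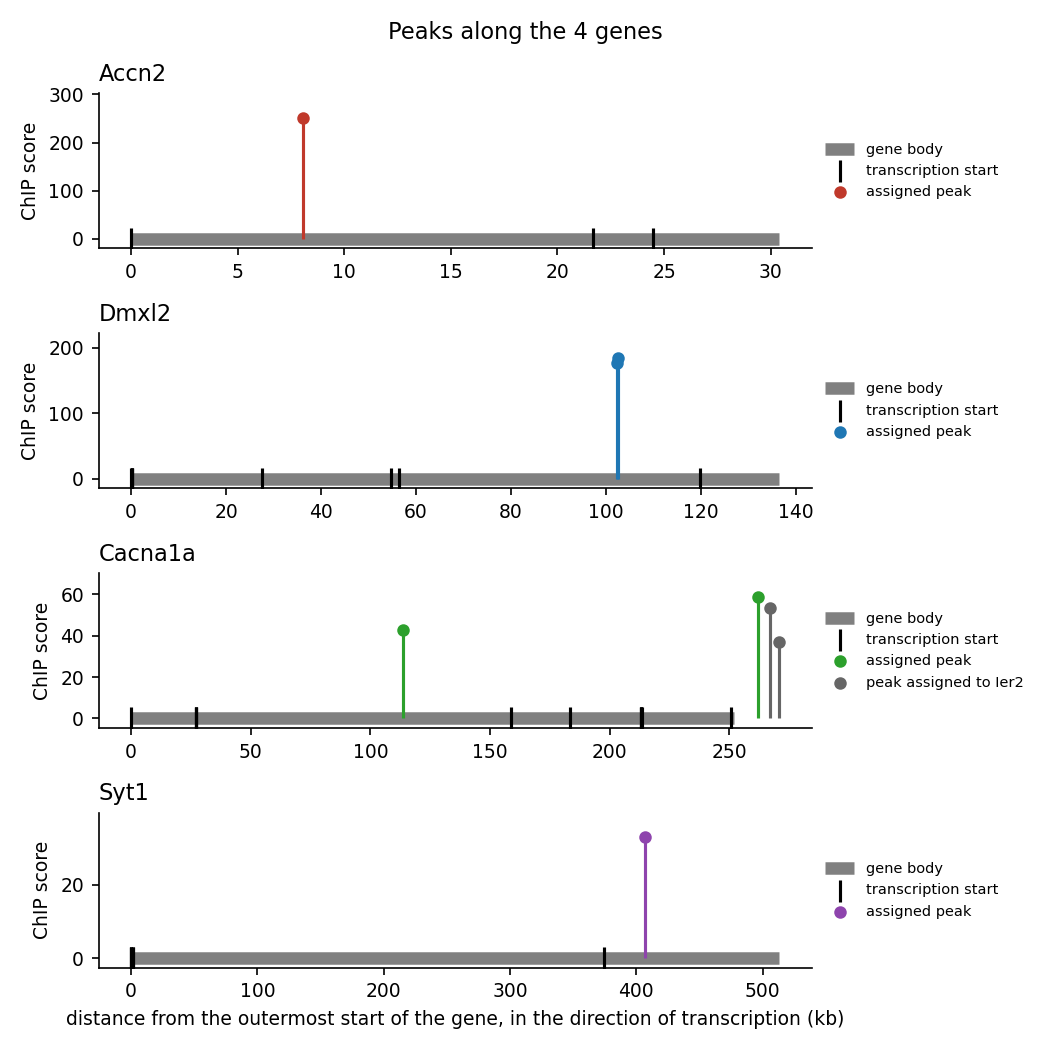
Peaks along Accn2, Dmxl2, Cacna1a and Syt1, with distance from the outermost start in the direction of transcription in kb (x axis) and deposited ChIP score (y axis, from 0). Grey bars are gene bodies, black ticks annotated transcription starts, coloured stems the assigned peaks and dark grey stems 2 peaks assigned to Ier2; of the 6 assigned peaks, Cacna1a peak 1 lies beyond its gene's end.

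None of the 6 maxima was at a promoter. The Accn2 peak, at 8.04 kb, was the nearest to a start, and the other 5 were more than 10 kb away, as were 67.0% of all peaks. Of the 6 maxima, 5 lay in the body of the gene to which they were assigned, against 39.0% of all peaks. These 5 include both Dmxl2 maxima of 1 region. Dmxl2, Cacna1a and Syt1 are also long genes, of 137, 252 and 513 kb, against a median of 15.4 kb for protein-coding genes. Assigned by the outermost start of each gene, 10.2% of all peaks changed gene, and 2 of these 6 did (Cacna1a peak 1 and the Syt1 peak). The nearest start of any annotated gene, noncoding genes included, belonged to the same gene for all 6, as it did for 69.0% of the list.

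Background was low at 5 of the 6 peaks. As a percent of the ChIP score the background score was 0 at Accn2 and at Cacna1a peak 2, as it was at 31.1% of all peaks. It was 0.216% and 0.0795% at the Dmxl2 peaks and 0.682% at Cacna1a peak 1, all below the list's median of 0.722%. Syt1 stood apart with 8.93%, above the upper quartile of 4.59%. The source of the background score is unknown, so these values are no comparison with the libraries without Dox. Ranked by ChIP score minus background score, the 4 genes kept their order: Accn2 stayed at number 5 and Dmxl2 at 10, Cacna1a came to 473 and Syt1 to 2286.

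Tags and scores placed the genes in the same order. By tags the Accn2 peak was number 7, the Dmxl2 peaks number 20, Cacna1a peak 1 number 553, Cacna1a peak 2 number 1589 and the Syt1 peak number 2353. These places are over all 2454 peaks, and a region with several maxima enters once for each of them. By region, 0.130% of the 2301 regions had more tags than that of Accn2, and 0.565% more than that of Dmxl2. The 15 tags of Syt1 and the 25 of Cacna1a peak 2 had overlapping counting intervals, as had the 166 of Dmxl2 and the 193 of Accn2. The order within each of these pairs is therefore not set by the tags.

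**Figure D3:**
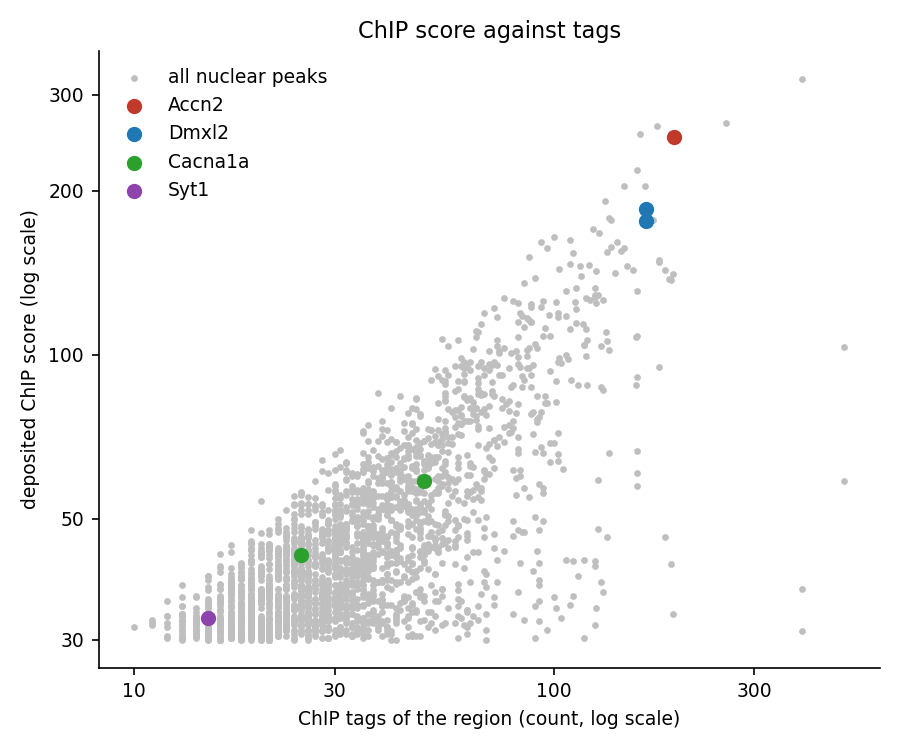
Deposited ChIP score (y axis, log scale) against the count of ChIP tags in the region (x axis, log scale), with all nuclear peaks in grey and the 6 peaks coloured by gene. Both Dmxl2 points stand at the 166 tags of their shared region; Accn2 at 193 tags is the highest of the 6 on both axes, and Syt1 at 15 tags the lowest.

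Every one of the 6 sequences held a homeodomain core, but only Cacna1a peak 2 held the palindrome that is typical of LIM-homeodomain factors. The core ATTA (either strand) was in all 6 of the 200 bp windows, in 94.2% of all peaks and in 66.7% of windows of the same length 1 kb to each side (flanks). The palindrome TAATTA was in 1 of 6, against 34.3% of all peaks and 6.50% of flanks. At Cacna1a peak 2 its centre was 11.5 bp from the maximum, in the capital run TAATTAAT printed above. The E-box CAGCTG, a site of basic helix-loop-helix factors found in 13.9% of all peaks, lay beside it at 6.5 bp on the other side of the maximum.

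The stronger of the 6 peaks held a related core. TAATTG (or CAATTA on the opposite strand), chosen after these sequences were seen, was in 4 of the 6: Accn2, both Dmxl2 peaks and Cacna1a peak 1. The Dmxl2 peaks share a copy, and by region the count is 3 of 5. The core was in 30.2% of all peaks, 7.60% of flanks and 40% of the 100 strongest peaks. Those 100 include the Accn2 peak and both Dmxl2 peaks, and TAATTA was in 30% of them. Whether TAATTG goes with peak strength was not tested. In Accn2 its centre was 22.5 bp from the maximum, and in Cacna1a peak 1 it was 10.5 bp away. In Dmxl2 2 copies stand 29 bases apart, both as TAATtg in the printed line, and peak 1 holds only the first of them in its window. GCTAAT (or ATTAGC), chosen in the same way, was in the Accn2 peak and, as 1 shared copy, in both Dmxl2 peaks. It was present in 25.5% of all peaks and 32% of the 100 strongest. In Accn2 both cores overlap in the octamer GCTAATTG.

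The other 2448 peaks were then used to rank sequence words without these 6. Among 6-base words in at least 100 of those peaks, the highest ratios of peaks to flanks were those of TAATTA (5.29), GCTAAT (4.16) and TAATTG (3.96). Of the first 10 words by this ratio, the Dmxl2 peaks held 5 and 6, Accn2 and Cacna1a peak 1 held 3 each, Cacna1a peak 2 held 2 and Syt1 held 0. All peaks had a median of 3 and flanks of 0. At least 5 words were in 17.3% of all peaks and 1.43% of flanks, and at least 1 was in 83.3% of all peaks. Dmxl2 therefore held more of these words than most of the list, and Syt1 was among the minority of peaks with none.

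Words of 8 bases were ranked in the same way, among those in at least 40 of the other peaks. The highest ratio of all (16.2) was that of GCTAATTG, in 3.64% of peaks and 0.225% of flanks, and it was in the Accn2 peak. The Dmxl2 line holds CTAATTGC (ratio 9.75), GTTAATTG (9.73) and TCATTAGC (9.22), which were among the first 20 and in 3.19%, 2.98% and 3.39% of peaks. Both Cacna1a peaks and the Syt1 peak held none of those 20 words. At least 1 of the 20 was in 45.0% of all peaks and 5.70% of flanks, so neither holding nor lacking one was unusual in the list.

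**Figure D4:**
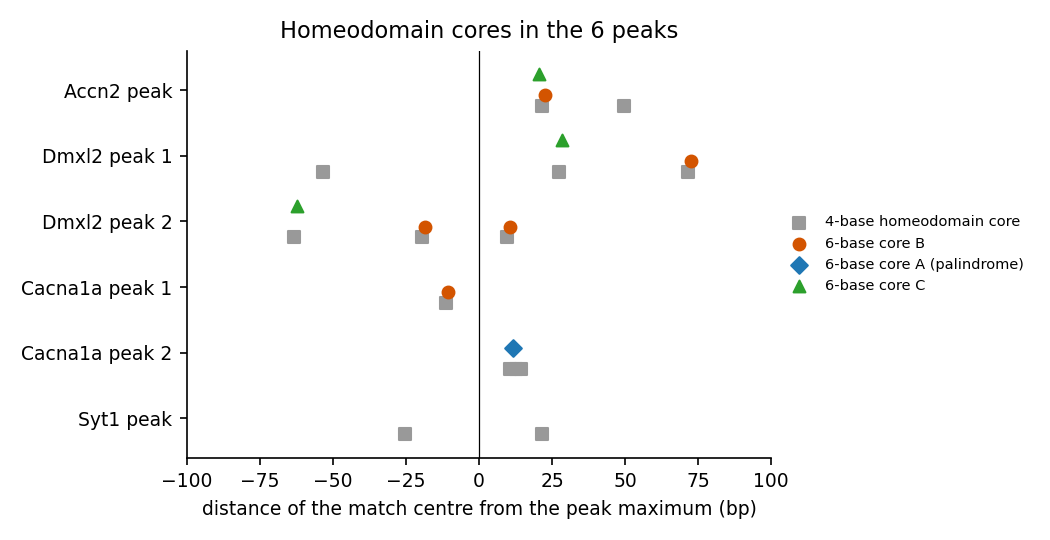
Positions of homeodomain cores in the 6 peaks: each row is a peak, and the x axis is the distance in bp of a match's centre from the peak maximum, along the plus strand. Squares are the 4-base core ATTA, diamonds the 6-base core A (TAATTA), circles the 6-base core B (TAATTG) and triangles the 6-base core C (GCTAAT), each on either strand; circles are in 4 rows, a diamond in 1 and the Syt1 row has squares only.

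Other site types were rare in the 6 windows. Pairs of homeodomain cores at fixed spacings were in 0 of 6. Repeats of the core in the same direction, with 5 bases between, were in 6.03% of all peaks and 1.24% of flanks. Cores in opposite directions were in 4.93% and 0.632% with 3 bases between. With 2 bases between they were in 3.55% and 0.713%, and with 10 in 2.93% and 0.346%. The Syt1 peak had the SOX site ATTGTT in 2 copies, 84.5 and 82.5 bp from the maximum on either side, and 14.3% of all peaks had at least 1. The POU octamer ATGCAAAT, the relaxed STAT site TTCNNNGAA (searched because STAT3 is in the series title), the RE1 half-site TTCAGCACC and the cAMP response element TGACGTCA were in 0 of 6, against 4.24%, 5.01%, 0.530% and 0.489% of all peaks. With 6 windows a site as rare as these would often be missed, so the count of 0 sets them apart from no other peaks. GC content was 50.5% to 56% in the 6 windows, against a median of 48% for all peaks and 45% for flanks. In the flanks of the 6 peaks themselves it was 32.5% to 53%. The nearest ATTA core was 9.5 to 27.5 bp from the maximum, with a median of 15.5 bp for those of all peaks that held one.

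Peaks were then counted over the families of the 4 genes. In all, 9 lists of 227 genes for excitability and vesicle release were counted, and 18 genes (7.93%, 95% exact binomial interval 4.77 to 12.2) had a peak by nearest start. Of all 22367 protein-coding genes 8.16% had one, so the share over the lists was near the background. Since the 4 genes were chosen for their peaks, the remaining 223 are the fairer count, and 14 of them (6.28%) had a peak. Peaks were also commoner at genes with large territories. Among the 25% of genes with the largest territories 19.5% had a peak, and of the 106 list genes among them, leaving out the 4, 11 did (10.4%).

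Among the channels that make a neuron excitable, Accn2 was the only 1 of 5 acid-sensing channel genes with an assigned peak. It was chosen for that peak, which leaves 0 of 4, and 8.16% of all protein-coding genes had a peak. Of 26 voltage-gated calcium channel subunit genes 2 had one, Cacna1a and Cacng7 (35.06), which encodes an auxiliary gamma subunit. Voltage-gated sodium channel subunits, which carry the rising phase of the action potential, had 0 of 14, which allows a share of up to 23.2%. Voltage-gated potassium channel subunits had 4 of 43: Kcnq1 (69.59), Kcnh2 (51.12), Kcns3 (38.27) and Kcng3 (31.05). Of these, the Kcng3 peak was the nearest to a start, and the Kcnq1 peak lay inside its gene. Ionotropic receptor subunits had 4 of 38, the kainate receptor genes Grik3 (49.78) and Grik4 (45.23), the AMPA receptor gene Gria3 (43.63) and the GABA-A receptor gene Gabrg3 (33.19). The Gabrg3 peak was 318 kb from a start, though inside its gene, and the Kcns3 peak 108 kb. By the starts of any annotated gene, Grik3, Gria3 and Kcnh2 lost their peaks to other genes. The receptors then had 2 genes with a peak and the potassium channels 3.

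Among vesicle genes, Syt1 was the only 1 of 17 synaptotagmin genes with a peak, and Dmxl2 the only 1 of 13 genes for rabconnectins and Rab3 regulators. Both were chosen for their peaks, and the other genes of these lists had 0 of 16 and 0 of 12. Beside the 8.16% of all protein-coding genes with a peak, counts from lists this short set neither family apart. Subunits and accessory proteins of the V-ATPase, the vesicle proton pump, had 3 of 25: Atp6v1c1 (56.21), Atp6ap2 (31.58) and Atp6v0a1 (31.31), all intergenic and 18.1 kb or more from a start. The release machinery had 2 of 46, Cadps2 (85.92), which encodes a priming factor for vesicle exocytosis, and Ppfia2 (40.68), which encodes a liprin of the active zone. No gene of these lists other than Accn2 and Dmxl2 had a peak with a score above 85.92. The median over all 18 strongest peaks was 44.43, against 43.36 over every protein-coding gene with a peak. Those 18 include Accn2, Dmxl2, Cacna1a and Syt1, which were chosen with their scores known. The small excess of this median therefore does not show stronger peaks at the other genes of the lists.

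Counting a gene when a maximum lies in its body or up to 10 kb before it gave another set of channel and vesicle genes. By this reading 18 of the 227 list genes had a peak, and 12 of them also had one by nearest start. Without the 4 genes this was 14 of 223 (6.28%), near the 5.40% of all protein-coding genes. All 4 of Accn2, Dmxl2, Cacna1a and Syt1 had a peak under both readings, Cacna1a through its intronic peak alone. The genes gained were Accn1, Cacnb4, Cacna1d, Atp6v0d1, Unc13a and Syn3, and those lost lay beside intergenic peaks. For these genes the peaks counted lie in the body or in the 10 kb before it. Accn1, a paralogue of Accn2, had 4, the strongest with a score of 69.05, all nearer to a start of 5530401A14Rik. Cacnb4, which encodes a beta subunit of voltage-gated calcium channels, had 2 (up to 81.9), nearer to Arl5a. Unc13a, a priming factor for synaptic vesicles, had 1 of score 31.58 that by nearest start belonged to Jak3, and Syn3, a synapsin gene, had the Timp3 peak of score 32.92.

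**Figure D5:**
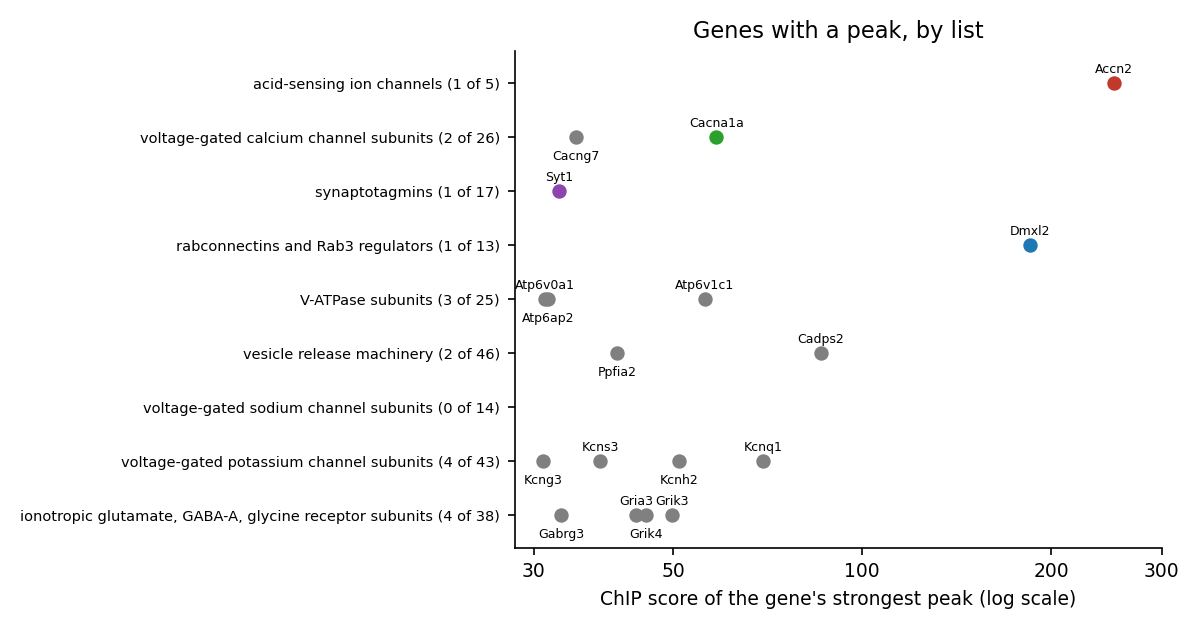
ChIP score of the strongest peak (x axis, log scale) of each gene with a peak in 9 lists of excitability and vesicle genes (rows, with the number of genes with a peak of all genes in the list). The 4 genes described are coloured and the other 14 are grey; Accn2 and Dmxl2 lie far to the right of the rest, and the sodium channel row is empty. The Cacna1a point is its peak 1, which lies beyond the gene's end.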

How the data were processed

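Flag ChIP-seq was done on 4 libraries in 2 numbered sets. Per the submitters' processing notes, BWA 0.5.8a and the build mm9 were used. Not given in the sources used here are the peak caller, its threshold and whether sets were pooled. The authors deposited 1 list of 2455 peaks. Its ChIP score and background score are deposited scores with no stated scale, and the deposited tags are a count per region. Library depth is unknown. One mitochondrial peak was left out.

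Each maximum was assigned to the nearest start among all transcripts of 22367 protein-coding nuclear genes (GENCODE M1, Ensembl 65, NCBIM37, which is mm9; 0 peak windows ran past a chromosome end). Coordinates are 1-based. Motifs were searched on both strands in 200 bp centred on each maximum and in flanks centred 1 kb to each side. Python 3.11.15, pandas 2.3.3, numpy 2.4.6 and scipy 1.17.1 were used. No test was made: the list has no value per library, and the members and gene lists were chosen with earlier results of these data known. The alternatives were other starts, distance limits, stricter score thresholds, other measures of strength and other windows. Genes named are the 4 members, up to 4 genes with the strongest peaks per list, host and next genes, and neighbours by score; Accn1, Cacnb4, Cacna1d, Atp6v0d1, Unc13a and Syn3 were named after their values were seen.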

Additional observations from a re-analysis of the deposited data

How the results depend on the processing

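Of 24 recomputed values for the main counts and ranks, 20 stayed within 1.5 times the reported value. Only 1 of the 6 peaks, that of Accn2, lay within 10 kb of a start. Ranked by tags over all peaks, where a region with several maxima enters once for each, Dmxl2 was number 20 in place of 10. With 1 added to each score, the median background over the 6 peaks was 1.52% of the ChIP score in place of 0.148%. Among the 50% of peaks with the highest scores, 10 list genes had a peak in place of 18. Of the other recomputed values, such as those for single peaks and single lists, 28 stayed and 16 moved. Among those 50% of peaks, V-ATPase subunits had 1 gene in place of 3. By gene body or the 10 kb before it, the release machinery had 4 in place of 2. With the outermost starts or with protein-coding transcripts alone, both added after the data were seen, 4 peaks remained assigned. Cacna1a peak 1 then went to Ier2 and the Syt1 peak to Pawr, which left Syt1 without a peak. TAATTA was in 1 of 6 peaks in windows of 100, 200 and 500 bp, and TAATTG in 3, 4 and 4. No value per library exists in the list, so no library could be left out. No paired analysis was possible because the deposited columns carry no set or library.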
